A study of Mus musculus with 6 samples.

Results

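The data described here are the transcripts without a gene name that the assembler Cufflinks built inside 2 imprinted regions of the mouse genome, in RNA from pituitary cells and whole pituitary glands. A transcript was counted where its deposited identifier was an assembler number, its length was 100 nt or more and its position lay between 109.4 and 109.9 Mb of chromosome 12 or between 59 and 63 Mb of chromosome 7 (build mm39). The rule found 1991 transcripts, 665 on chromosome 12 and 1326 on chromosome 7, of 1640001 unnamed transcripts of that length in the 6 libraries. Transcripts that shared a base were merged over the libraries, which gave 74 loci on chromosome 12 and 107 on chromosome 7, of 280476 in all. The members were chosen by position and by the assembled length in each library. Because each library was assembled from its own reads, the presence and the length of a member are themselves readouts of that library, and they are given as a description with no test.

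The study asked which long RNAs mark pituitary development and its hormone cell types. Sorted cells came from mice that carried a Cre transgene (Tshbcre, Ghcre or Lhbcre) and a ROSA YFP reporter, and the sorted GFP-positive fraction of the dispersed glands was used. The adult pools, taken at 7 weeks, held 42 glands for Tshbcre, 12 for Ghcre and 7 for Lhbcre, and a postnatal day 7 (P7) Tshbcre pool held 5 glands. Nontransgenic glands, labelled as all pituitary cells, gave an adult library from 1 gland and a P7 library from 8 glands. Total RNA was depleted of ribosomal RNA before sequencing, so RNAs without a poly(A) tail could be read. There was 1 library per group, so no difference between groups could be tested against a spread between replicates. The errors given below come from the deposited bounds and cover counting at most. A reporter marks every cell in which the Cre was once active, and a sorted and a whole library also differ in handling. In whole glands, fewer cells of a type and less RNA per cell cannot be told apart.

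The chromosome 12 region is the Dlk1-Dio3 imprinted domain. From the maternal copy it makes a series of noncoding RNAs, Meg3, Rian and Mirg, whose introns hold small nucleolar RNAs and a large miRNA cluster. The paternal copy makes the proteins Dlk1, a transmembrane relative of Notch ligands, and Rtl1, which derives from a retrotransposon. MEG3 is well known in the pituitary because its expression is lost in many human nonfunctioning pituitary tumours. The chromosome 7 region is the mouse counterpart of the Prader-Willi and Angelman syndrome region. Its paternal copy makes the long transcript Snhg14, Snrpn and the genes Ndn, Magel2 and Mkrn3, and the Mir344 family of miRNAs lies between Snrpn and Ndn.

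The members are most easily placed by the miRNAs whose hairpins lie between their ends. Merged loci held 41 of 60 miRNA hairpins of the chromosome 12 window and 11 of 13 of the chromosome 7 window. The mature sequences below are from RefSeq (build GRCm38.p6), written 5′ to 3′ with the seed, bases 2 to 8, in capitals. They are shown because they share a seed with another miRNA inside the merged loci of the same region. The mature miRNAs themselves were not measured by these libraries. On chromosome 12, 12 of the 75 distinct mature sequences inside merged loci shared 6 of the 69 seeds.
mmu-miR-379-3p: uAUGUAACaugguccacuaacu
mmu-miR-411-3p: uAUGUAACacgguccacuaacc
mmu-miR-379-5p: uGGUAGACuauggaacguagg
mmu-miR-1193-5p: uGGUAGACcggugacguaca
mmu-miR-299a-3p: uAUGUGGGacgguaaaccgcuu
mmu-miR-299b-3p: uAUGUGGGacgguaaacc
mmu-miR-1197-5p: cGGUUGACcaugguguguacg
mmu-miR-758-5p: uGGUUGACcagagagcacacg
mmu-miR-453: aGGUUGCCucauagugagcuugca
mmu-miR-496a-5p: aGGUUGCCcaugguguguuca
mmu-miR-410-5p: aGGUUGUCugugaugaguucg
mmu-miR-494-5p: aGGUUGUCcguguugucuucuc
On chromosome 7, 9 of the 16 distinct sequences shared 3 of the 10 seeds, and 5 sequences of the Mir344 family had the seed GUCAGGC.
mmu-miR-344-5p: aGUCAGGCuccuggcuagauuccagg
mmu-miR-344b-5p: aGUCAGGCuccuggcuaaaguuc
mmu-miR-344c-5p: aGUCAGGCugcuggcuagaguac
mmu-miR-344d-3-5p: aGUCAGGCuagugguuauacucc
mmu-miR-344g-5p: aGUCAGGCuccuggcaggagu
mmu-miR-344-3p: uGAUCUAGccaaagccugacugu
mmu-miR-344c-3p: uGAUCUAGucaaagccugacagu
mmu-miR-344d-3p: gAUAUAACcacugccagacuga
mmu-miR-344e-3p: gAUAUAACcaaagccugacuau
The seed AUAUAAC of the last pair also occurred once on chromosome 12, in miR-410-3p from the Mirg end of the cluster.
mmu-miR-410-3p: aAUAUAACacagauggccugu

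Levels of these members depend on how transcript length is treated. FPKM is the number of fragments per kilobase of transcript, scaled to the depth of the library. The level of a locus was the sum of FPKM times length over its unnamed transcripts, divided by the length of the locus and by 1 scaling factor per library. The deposited confidence bounds imply a number of fragments behind an FPKM, and they show that short transcripts were given very high values from few fragments. At a median length of 105 nt the fragments behind 1 FPKM and nt were 0.024 of those at 1741 nt, and at 342 nt they were 0.475. The 63 members of 100 to 109 nt had a median FPKM of 222, the 80 transcripts of 90 to 99 nt just outside the rule had 283, and the 253 members of 1000 nt or more had 4.03. A length-corrected level, chosen after the data were seen, multiplies each FPKM by this curve and is given beside the first level throughout. Neither scale was tested against a known amount of RNA.

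**Figure D1:**
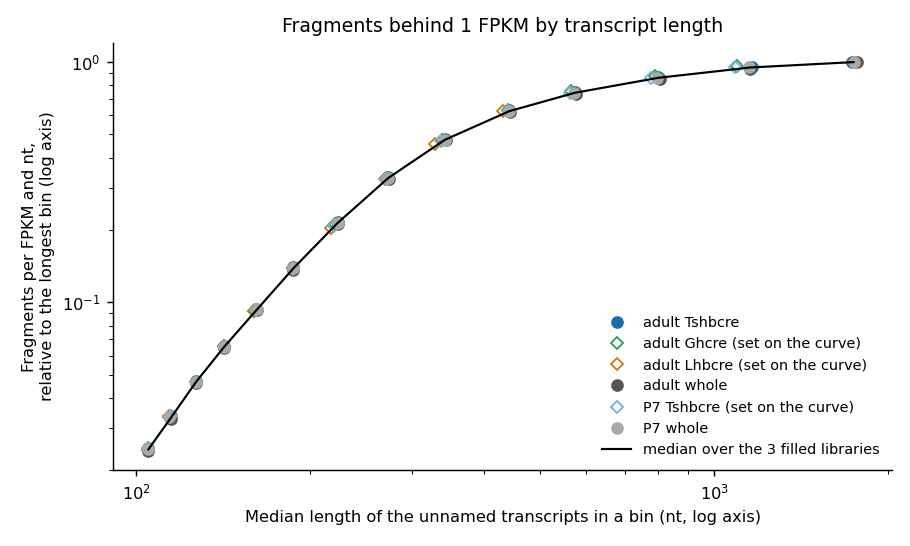
Fragments behind 1 FPKM and nt of unnamed transcripts, relative to the longest bin (vertical log axis), against the median transcript length of each bin in nt (horizontal log axis), with 1 point per library and bin. Filled circles are the 3 libraries that define the black median line and open diamonds are the libraries set on it; the points fall from 1 at 1741 nt to 0.024 at 105 nt, and no library departs from the line by more than 4.64%.

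This matters because the libraries were assembled into pieces of different length. On chromosome 12 the median member was 499 nt in the adult Tshbcre library, 287 in Ghcre, 193 in Lhbcre, 556 in adult whole, 272 in P7 Tshbcre and 332 in P7 whole. On chromosome 7 it was 315.5, 169, 523, 220.5 and 362.5 nt in adult Tshbcre, Lhbcre, adult whole gland, P7 Tshbcre and P7 whole gland. The sorted Lhbcre cells had the shortest pieces and the adult whole gland the longest in both windows. The deposited coverage per FPKM, used as a measure of depth, ranged from 1 (adult whole, the reference) to 2.73 times (Ghcre). The deposited Ghcre table ends within chromosome 5 in its sort order, lists no chromosome 7, and has no line between bases 109506531 and 109628203 of chromosome 12, so Meg3, Rtl1 and Rian were not measured in Ghcre cells. Marker genes followed the labels for thyrotropes, with Tshb, the hormone's beta subunit, at 1075 scaled FPKM in adult Tshbcre, 33.1 in adult whole, 3001 in P7 Tshbcre and 61.0 in P7 whole. The Tshbcre cells also held the gonadotrope hormone genes Lhb, at 2904 scaled FPKM in the adult and 1278 at P7 beside 2198 in Lhbcre cells, and Fshb, at 928 and 482 beside 216. By contrast Nr5a1, a transcription factor of gonadotropes, stood at 26.0 and 0 in the 2 Tshbcre libraries beside 55.5 in Lhbcre, and the receptor gene Gnrhr at 28.4 and 8.91 beside 53.2. Hormone genes of other cell types were also listed in the Tshbcre cells. Gh, of somatotropes, stood at 14806.5 scaled FPKM in the adult and 3870 at P7, above Tshb in both, beside 6031 in P7 whole. Prl, of lactotropes, stood at 6546 and 21.7 in adult and P7 Tshbcre, beside 17579 and 82.5 in the whole glands. Gh itself was not listed for Ghcre, Lhbcre or adult whole.

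On chromosome 12 the unnamed transcripts were concentrated in the stretch from the annotated end of Rian to the end of Mirg (chr12:109628151-109715892). This 87.7-kb stretch is 17.5% of the window and held 459 of the 665 members, or 69.0%. By contrast 119 members lay before Meg3, 70 between the start of Meg3 and the end of Rian, and 17 after Mirg. In summed length the members equalled 91.3% of the stretch in adult Tshbcre, 93.9% in Ghcre, 39.5% in Lhbcre, 99.8% in adult whole, 62.9% in P7 Tshbcre and 91.1% in P7 whole. Mirg, the noncoding RNA annotated at the far end of the stretch, was listed at 0 under its own name in Ghcre, Lhbcre, adult whole and P7 Tshbcre and at 8.22 and 11.9 scaled FPKM in adult Tshbcre and P7 whole.

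**Figure D2:**
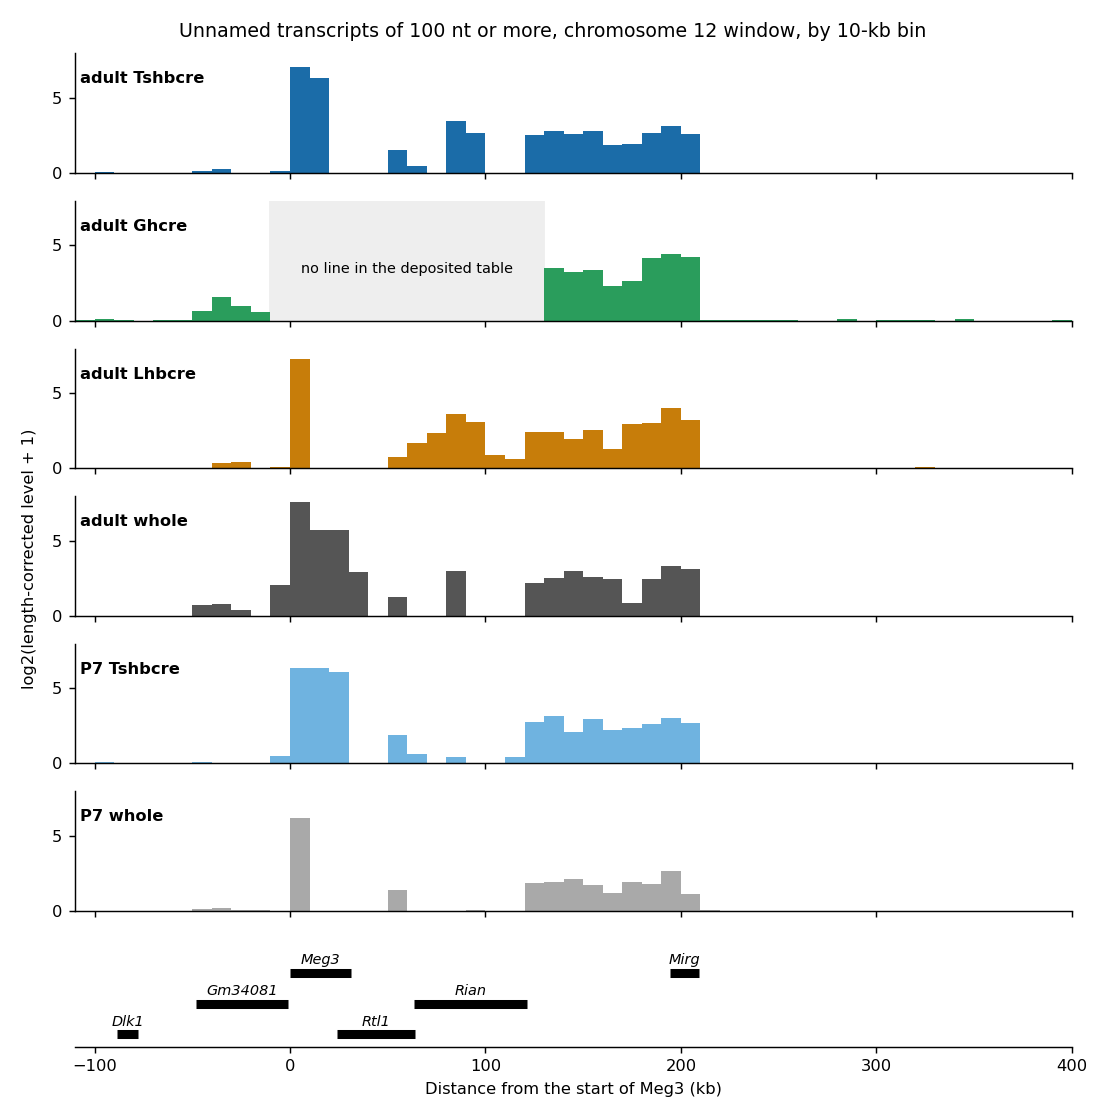
Length-corrected level of the unnamed transcripts in 10-kb bins (vertical axis, log2 of the level plus 1) against the distance from the start of Meg3 in kb, 1 panel per library, with gene spans below. In all 5 libraries that list it Meg3 holds the highest bin; the stretch between the ends of Rian and Mirg is filled in all 6 libraries and the window beyond Mirg is nearly empty, while the grey block marks where the Ghcre table has no line.

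The level over the whole stretch from Rian to Mirg was 6.19 in adult Tshbcre, 13.5 in Ghcre, 36.1 in Lhbcre, 7.40 in adult whole, 17.2 in P7 Tshbcre and 4.6 in P7 whole. Length-corrected, the same values were 5.15 ± 0.042, 11.7 ± 0.070, 6.24 ± 0.031, 5.31 ± 0.045, 5.59 ± 0.037 and 2.79 ± 0.025 (± the counting SD from the deposited bounds). On the corrected scale Ghcre cells were the highest, P7 whole the lowest, and the other 4 libraries lay between 5.15 and 6.24. The Ghcre level was 2.20 times that of adult whole, 1.51 times with FPKM as deposited and 5.93 times with libraries set to an equal sum over named genes. The P7 Tshbcre level was 2.0 times that of P7 whole (1.37 and 2.53 times under the same 2 scalings), and P7 whole was at 0.526 times adult whole (0.676 and 0.580). Adult Tshbcre stood at 0.969 times adult whole. The Lhbcre level was 4.88 times that of adult whole from FPKM and 1.17 times after the length correction. These levels are averages over the whole stretch, and the libraries covered different shares of it, as given above. Taken as the mean corrected level over the assembled length alone, the values were 5.64 in adult Tshbcre, 12.4 in Ghcre, 15.8 in Lhbcre, 5.32 in adult whole, 8.89 in P7 Tshbcre and 3.07 in P7 whole. Over assembled length Lhbcre was thus the highest, at 2.97 times adult whole, and Ghcre stood at 2.34 times. Assembled length is the summed transcript length, in which bases shared by overlapping transcripts of a library count more than once.

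Within this stretch 3 merged loci followed each other, and all 3 had transcripts in every library. The first (chr12:109628204-109653923) begins beside the end of Rian, holds the small RNA gene AF357341 and the hairpin of Mir882, and had levels of 5.59, 10.1, 35.5, 6.90, 12.7 and 3.65 in adult Tshbcre, adult Ghcre, adult Lhbcre, adult whole gland, P7 Tshbcre and P7 whole gland. Its corrected levels were 5.52, 9.84, 4.21, 5.07, 6.46 and 3.25. The second (chr12:109653964-109689886) spans 18 miRNA hairpins from Mir379 to Mir654, among them Mir411, Mir299a, Mir1193 and Mir494 of the sequences above. Its levels were 5.11, 9.57, 27.5, 5.13, 18.6 and 5.41, and its corrected levels 4.16, 7.03, 4.2, 3.99, 4.67 and 2.20. In the third (chr12:109690002-109716033), which spans 20 hairpins from Mir376a to Mir3072 and the gene Mirg, the levels were 8.27, 22.2, 48.6, 11.0, 19.9 and 4.45. Corrected, the Mirg locus stood at 6.15 ± 0.089, 19.9 ± 0.207, 11.1 ± 0.081, 7.39 ± 0.099, 6.01 ± 0.075 and 3.17 ± 0.052. On the corrected scale over the whole locus Ghcre was the highest library and P7 whole the lowest at each of the 3 loci. Over the assembled length alone Lhbcre was the highest at the first and the second, at 12.3 and 13.2 beside 9.97 and 10.3 in Ghcre. At the third, Ghcre transcripts overlapped, and their summed length equalled 124% of the locus. The Ghcre mean there, 16.0, thus fell below its whole-locus level of 19.9, and its rank beside Lhbcre at 20 is not settled. On the first of these scales the gap between Ghcre and the next library was widest at the Mirg end, where a single Ghcre transcript of 10024 nt covered 11322 bases at 14 scaled FPKM.

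The hairpins themselves were seldom inside a continuous member. Of the 40 hairpins between Rian and Mirg, transcripts without a gap in their span touched 1 in adult Tshbcre, 2 in Ghcre, 0 in Lhbcre, 1 in adult whole, 1 in P7 Tshbcre and 0 in P7 whole. Those same transcripts covered 44.7%, 41.6%, 32.1%, 31.6%, 54.1% and 32.9% of the bases there. Of the 10 other small annotated genes of the stretch they touched 5, 1, 0, 0, 1 and 1. Continuous members thus covered between 31.6% and 54.1% of the bases but at most 2 of 40 hairpins. On chromosome 7, transcripts without a gap touched 4 of the 13 Mir344 hairpins in adult Tshbcre, 0 in Lhbcre, 4 in adult whole, 2 in P7 Tshbcre and 2 in P7 whole, with 22.2%, 3.78%, 22.2%, 16.1% and 15.3% of the bases covered.

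Meg3 gave the highest level among the long loci. The merged locus (chr12:109506726-109538163) lies on the annotated gene, runs to its last base, and had levels of 67.3 ± 1.02 in adult Tshbcre, 53.6 ± 0.830 in Lhbcre, 97.8 ± 1.27 in adult whole, 72.1 ± 1.5 in P7 Tshbcre and 22.6 ± 0.476 in P7 whole. The correction left these at 66.9, 49.0, 97.0, 72.1 and 22.6, since the Meg3 pieces are long. The adult whole gland was the highest and the P7 whole gland the lowest. The difference in log2(level + 1) was −2.06 between P7 whole and adult whole and 1.63 between P7 Tshbcre and P7 whole. Under its own name Meg3 was listed at 624, 902, 127, 642 and 427 scaled FPKM in the same libraries, so its RNA was divided between the named and the unnamed transcripts and the unnamed level alone is not the level of Meg3.

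The unnamed Meg3 pieces also differed in shape. In P7 Tshbcre cells a single transcript of 5015 nt spanned 28258 bases at 452 ± 9.42 scaled FPKM. In the P7 whole gland a single continuous transcript of 4044 nt stood at 176 ± 3.70. Adult Tshbcre cells had a gapped transcript of 1554 nt at 565 ± 12.0 and a continuous one of 13284 nt at 93.2 ± 1.95, the longest member in either window. The adult whole gland had pieces of 1707, 1881 and 1132 nt at 747, 748 and 347, and Lhbcre cells had pieces of 2004, 484 and 864 nt at 623, 869 and 18.0. Gapped transcripts at the Meg3 locus were thus listed in adult Tshbcre, adult whole and P7 Tshbcre, and only continuous ones in Lhbcre and P7 whole. The ± values stood at nearly the same share of levels as unlike as 93.2, 176, 452 and 565. They did not follow the amount of RNA, so the ± values at the Meg3 locus are not counting errors.

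Rtl1, the retrotransposon-derived gene, had one merged locus of 3770 nt (chr12:109562262-109566031) in the 5 libraries that list it. Its levels were 5.95 in adult Tshbcre, 27.8 in Lhbcre, 4.32 in adult whole, 11.8 in P7 Tshbcre and 4.25 in P7 whole. Corrected, they were 4.99 ± 0.176, 1.79 ± 0.072, 3.56 ± 0.137, 7.05 ± 0.204 and 4.25 ± 0.145. At this locus the Lhbcre library was thus the highest on one scale and the lowest on the other, and its 3 pieces there were 139, 255 and 103 nt long. They equalled 13.2% of the locus. Over the assembled length alone Lhbcre was the highest, at 13.6 beside 9.53 in P7 Tshbcre and 7.41 in adult whole. Elsewhere inside the Rtl1 span Lhbcre alone had loci of 547 nt (chr12:109568105-109568651), 664 nt (chr12:109568811-109569474) and 182 nt (chr12:109569903-109570084), named after their values were seen, at corrected levels of 12.1, 17.7 and 7.41. The low Lhbcre value therefore holds for the corrected average over the whole 3770-nt locus alone, and not for Rtl1 as a whole. Under its own name Rtl1 was listed at 22.5 scaled FPKM in adult whole and at 0 in adult Tshbcre, Lhbcre, P7 Tshbcre and P7 whole. Reads of Rtl1 could enter either the named or an unnamed transcript, so the unnamed level alone is not the level of Rtl1. In the P7 whole gland the locus was 1 transcript of the full 3770 nt. A 122-nt locus inside the Rtl1 span (chr12:109566090-109566211) was listed in adult whole alone, at 85.8, or 3.49 corrected. The sources used here do not give the strand of these transcripts, and Rtl1 and any RNA from the opposite strand cannot be told apart.

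Inside Rian, the host of many small nucleolar RNAs, 23 merged loci were found, and 19 of them had a transcript in 1 library. Their median length was 150 nt. The 4 highest levels of the whole chromosome 12 window were in this group. Lhbcre cells alone had a 145-nt locus (chr12:109614587-109614731) at 593 ± 25.6 and a 107-nt locus (chr12:109593314-109593420) at 446 ± 41.3. P7 Tshbcre cells alone had a 109-nt locus (chr12:109626621-109626729) at 494 ± 57 and a 113-nt locus (chr12:109621544-109621656) at 467 ± 51.3. Corrected, these were 41.0, 11.6, 13.7 and 14.6. Adult Tshbcre alone had a locus of 150 nt (chr12:109601671-109601820) at 239 and one of 273 nt (chr12:109599351-109599623) at 116, or 18.1 and 38.1 corrected. P7 whole alone had 2 loci of 118 nt (chr12:109601001-109601118 and chr12:109583803-109583920) at 93.7 and 60.5, or 3.40 and 2.19 corrected. Of the 19 single-library loci inside Rian, 7 were in Lhbcre, 6 in P7 Tshbcre, 4 in adult Tshbcre and 2 in P7 whole, and 0 in adult whole. A locus of 228 nt (chr12:109593588-109593815) was listed in adult Tshbcre at 208 and in adult whole at 235, and at 46.6 and 52.6 after correction. The named gene Rian stood at 291, 340, 394, 361 and 209 scaled FPKM in adult Tshbcre, Lhbcre, adult whole gland, P7 Tshbcre and P7 whole gland, with P7 whole the lowest. Reads of Rian could enter either the named or an unnamed transcript.

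Upstream of Meg3 the unnamed transcripts were sparse, with one exception. The locus over the long noncoding gene Gm34081 (chr12:109458562-109492195), whose function is not described in the sources used here, had levels of 0.746 in adult Tshbcre, 3.72 in Ghcre, 1.69 in Lhbcre, 0.861 in adult whole, 0.302 in P7 Tshbcre and 0.344 in P7 whole. Corrected, these were 0.093, 1.18, 0.179, 0.493, 0.034 and 0.110. Ghcre cells were the highest on both of these scales, with 40 transcripts there against 20 in adult whole and 8 or fewer in adult Tshbcre, Lhbcre and P7 Tshbcre. Ghcre was also the deepest library, at 2.73 times adult whole. Over the assembled length alone Lhbcre was the highest, at 5.54, beside 2.16 in P7 Tshbcre, 2.05 in Ghcre and 1.37 in adult whole. The assembled length was 3.23% of the locus in Lhbcre, 1.59% in P7 Tshbcre and 57.5% in Ghcre. Named Gm34081 stood at 3.54 scaled FPKM in Ghcre, 3.37 in Lhbcre, 2.44 in adult whole, 1.35 in P7 Tshbcre, 1.12 in adult Tshbcre and 0 in P7 whole, so Ghcre and Lhbcre lay close together for the named gene. Over all bases before Meg3 the corrected level was 0.405 in Ghcre, 0.155 in adult whole, and 0.061 or lower in the other 4 libraries. Near Dlk1, a single 100-nt locus (chr12:109410593-109410692, 7719 nt from the gene) was listed in P7 Tshbcre alone, at 277 ± 51.4 and at 6.74 after correction. Another on the same side of Dlk1 (chr12:109404232-109404344, 14067 nt away) was in Ghcre alone, at 68.8, or 2.15 corrected. Named Dlk1 stood at 324, 423, 164, 522, 399 and 182 scaled FPKM in adult Tshbcre, adult Ghcre, adult Lhbcre, adult whole gland, P7 Tshbcre and P7 whole gland.

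On chromosome 7 the concentration was sharper. The stretch from Mir344d-1 to the start of Ndn (chr7:61332872-61998024) is 16.6% of the window and held 1239 of the 1326 members, or 93.4%. From the end of the small RNA gene Snord116l12 to the end of Snrpn, in 13.6% of the window, there were 67 members. The part of the window before that held 3. The annotated genes of the stretch from Mir344d-1 to Ndn account for only part of it: A230057D06Rik, a long noncoding gene, stood at 0, 2.79, 0, 13.5 and 1.27 scaled FPKM in adult Tshbcre, Lhbcre, adult whole gland, P7 Tshbcre and P7 whole gland. A330076H08Rik, another long noncoding gene beside it, stood at 4.88, 7.88, 5.11, 12.8 and 4.25. Both were highest in P7 Tshbcre. The named gene Gm3257 (chr7:61587895-61591277), also in the stretch, stood at 2.68, 12.2, 2.26, 4.23 and 3.51 in the same libraries and was highest in Lhbcre.

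**Figure D3:**
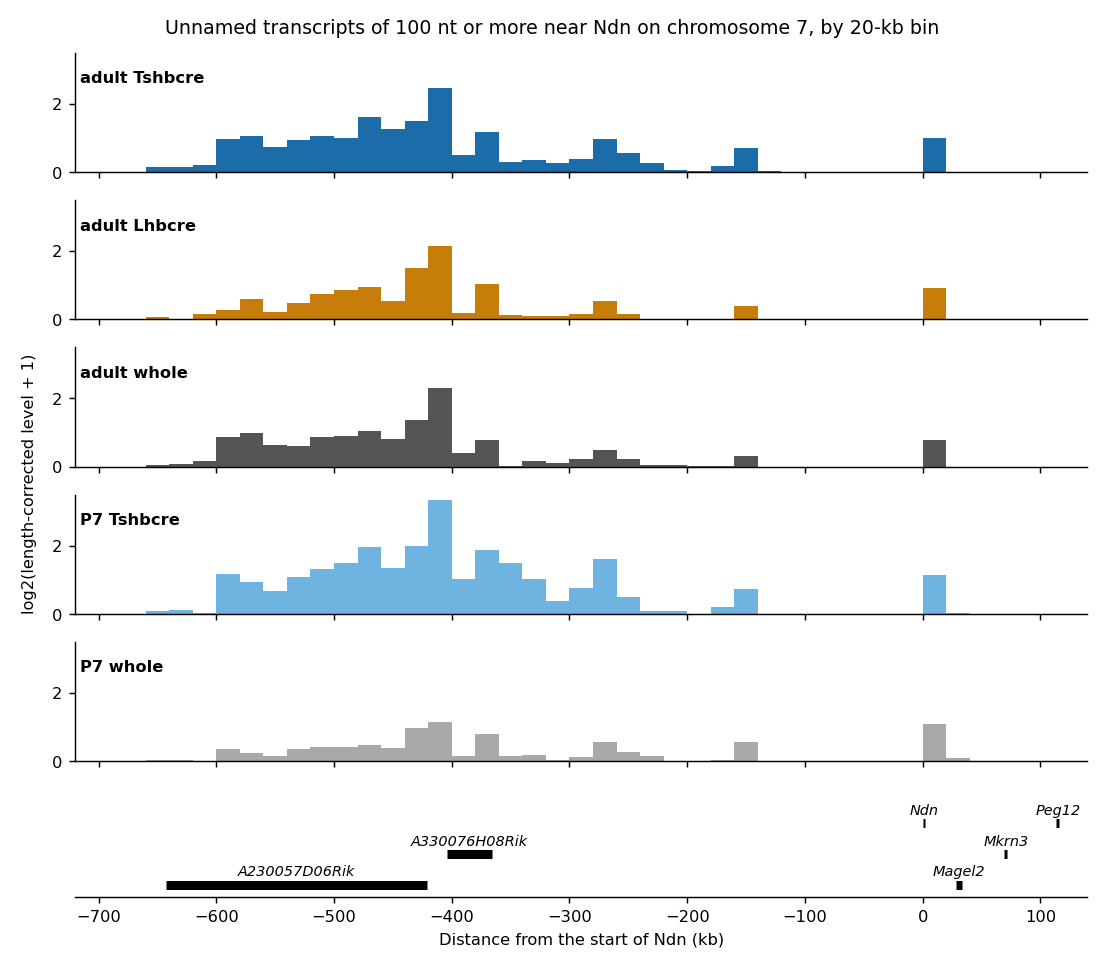
Length-corrected level of the unnamed transcripts in 20-kb bins (vertical axis, log2 of the level plus 1) against the distance from the start of Ndn in kb, 1 panel per library that lists chromosome 7, with gene spans below. Transcripts extend over about the same bins in all 5 libraries, the highest bin lies 420 to 400 kb before Ndn in each, and the P7 Tshbcre panel is the tallest there at a level of 8.99.

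The level over this stretch was 1.53 in adult Tshbcre, 3.02 in Lhbcre, 0.702 in adult whole, 4.22 in P7 Tshbcre and 0.498 in P7 whole. Length-corrected it was 0.632 ± 0.005, 0.362 ± 0.002, 0.436 ± 0.004, 1.04 ± 0.006 and 0.212 ± 0.002. P7 Tshbcre was the highest and P7 whole the lowest on both scales. In summed length the members equalled 24.4% of the stretch in adult Tshbcre, 4.05% in Lhbcre, 24.8% in adult whole, 17.2% in P7 Tshbcre and 17.4% in P7 whole. Over that assembled length alone the corrected means were 2.59, 8.94, 1.76, 6.05 and 1.22, so that Lhbcre was the highest on this scale. The P7 Tshbcre mean was 4.95 times that of P7 whole over the assembled length. Over the whole stretch the corrected P7 Tshbcre level was 4.91 times that of P7 whole, 3.37 times with FPKM as deposited and 6.20 times at an equal sum over named genes. In the adult the Tshbcre level was 1.45 times that of the whole gland (1.32 and 1.5 times), and P7 Tshbcre was 1.65 times adult Tshbcre (1.61 and 2.22). Lhbcre was 4.30 times adult whole from FPKM, 0.831 times after the correction and 5.08 times over the assembled length. In the bin with the highest levels, 420 to 400 kb before Ndn, the corrected levels were 4.49 in adult Tshbcre, 3.47 in Lhbcre, 3.90 in adult whole, 8.99 in P7 Tshbcre and 1.21 in P7 whole.

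Beside the P7 difference, markers of other cell types moved as well. From P7 whole to P7 Tshbcre all 4 mesenchymal genes of the list (Mgp, Col1a1, Col3a1, Dcn) were at least 4-fold lower, with a summed level of 212 against 4.09 scaled FPKM. All 4 endothelial genes (Plvap, Pecam1, Cdh5, Emcn) were lower too, at 66.2 against 3.52, and no mesenchymal or endothelial gene was at 0 in P7 Tshbcre. Their part in the difference of the unnamed transcripts was not tested. Ndn, which encodes a MAGE-family protein and borders the stretch, had levels that lay much closer together in these 2 libraries than the stretch itself, as given below.

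The longest locus of either window, 277887 nt (chr7:61355598-61633484), covers A230057D06Rik, A330076H08Rik and 9 Mir344 hairpins from Mir344d-3 to Mir344g. It was pieced together from 174 transcripts in adult Tshbcre, 101 in Lhbcre, 168 in adult whole, 210 in P7 Tshbcre and 154 in P7 whole. Its levels were 2.01, 5.09, 1.26, 4.96 and 0.660, and its corrected levels 1.21 ± 0.010, 0.724 ± 0.005, 0.917 ± 0.009, 1.84 ± 0.013 and 0.338 ± 0.004. The longest single member of this window was a continuous 6270-nt transcript of the adult whole gland at 5.29 ± 0.173 scaled FPKM. Adult Tshbcre and P7 Tshbcre had transcripts of 5523 and 6234 nt over nearly the same bases, at 6.67 ± 0.210 and 11.6 ± 0.310. All 3 of these lie over the named gene Gm3257 and over the hairpin Mir344-2, whose 2 mature sequences are those printed for miR-344. The second locus (chr7:61669637-61740910), with the hairpins Mir344f and Mir344i, had levels of 1.89, 2.79, 0.798, 8.72 and 0.675, and corrected levels of 0.467, 0.188, 0.212, 0.918 and 0.186. P7 Tshbcre was the highest library on the corrected scale over the whole locus at both Mir344 loci. Over the assembled length alone Lhbcre was the highest at the first, at 9.09 beside 6.04 in P7 Tshbcre. At the second, Lhbcre stood at 5.00 beside 5.17 in P7 Tshbcre. The Lhbcre pieces equalled 7.96% and 3.77% of the 2 loci, so the ranking depends on coverage.

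Between these 2 loci lay a row of short unnamed loci with no annotated gene. The first (chr7:61633568-61636065), 1461 nt from Mir344g, was listed in all 5 libraries at 7.48, 67.6, 3.46, 18.5 and 5.09 in adult Tshbcre, Lhbcre, adult whole gland, P7 Tshbcre and P7 whole gland. Corrected, it stood at 5.49 ± 0.211, 5.63 ± 0.158, 3.24 ± 0.168, 14.2 ± 0.371 and 5.09 ± 0.190. P7 Tshbcre was the highest on that scale and the other 4 libraries lay between 3.24 and 5.63. A 641-nt locus (chr7:61643602-61644242) had levels of 2.37, 27.8, 1.59, 7.19 and 0.554, and corrected levels of 0.686, 1.45, 0.620, 5.62 and 0.220. A 490-nt locus (chr7:61654424-61654913) was listed at 6.59 in adult Tshbcre, 86.4 in P7 Tshbcre and 1.2 in P7 whole, or 0.438, 7.08 and 0.648 corrected. A 452-nt locus (chr7:61661025-61661476) stood at 11.7, 58.4 and 0.721 in the same libraries, or 0.516, 6.48 and 0.455 corrected. A 238-nt locus (chr7:61640177-61640414) was listed in adult Tshbcre at 6.08 and in P7 Tshbcre at 72.4, or 0.968 and 4.24 corrected. On the corrected scale over the whole locus P7 Tshbcre was the highest library at each of these loci. The last 3 were named for their large P7 Tshbcre differences, so that rank follows from the choice. Their adult Tshbcre values rested on 11.0 to 11.9 implied fragments each. Over assembled length Lhbcre stood above P7 Tshbcre at the first 2, at 14.9 and 7.06 beside 14.2 and 5.62. Other loci of the row were not listed in P7 Tshbcre, such as chr7:61660651-61660858 in adult whole alone and chr7:61667366-61667547 in adult Tshbcre alone.

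**Figure D4:**
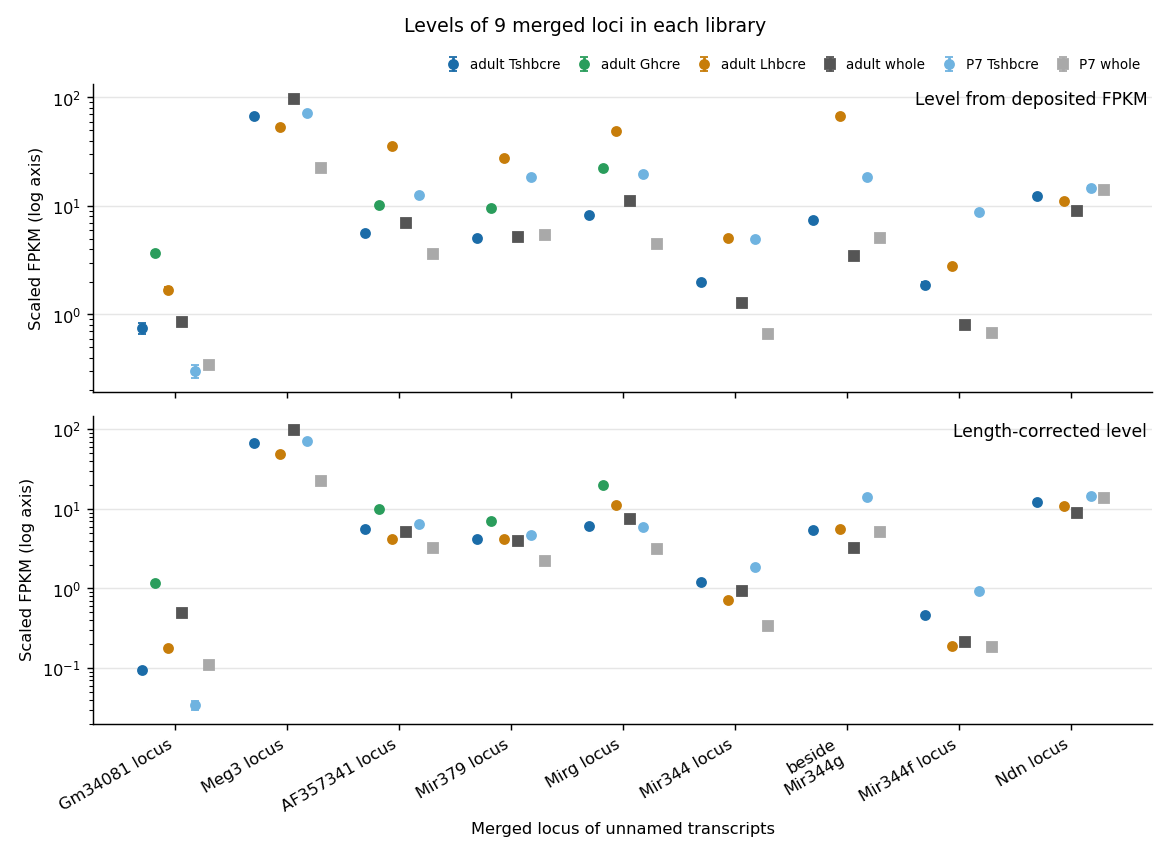
Levels of 9 merged loci (vertical log axes, scaled FPKM) in each library, from FPKM as deposited in the upper panel and after the length correction in the lower panel; points are single libraries and bars the counting SD, mostly smaller than the points. The Lhbcre points stand high in the upper panel at the loci made of short pieces and fall among the other libraries in the lower panel, while the Meg3 and Ndn points keep their places.

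Other short loci of the window had high FPKM levels that were lower after the correction. At the far side of the Mir344 locus, 1662 nt from A230057D06Rik, a 359-nt locus (chr7:61353578-61353936) was listed at 3.35 ± 1.01 in adult Tshbcre, 29.8 ± 7.97 in adult whole, 35.2 ± 5.20 in P7 Tshbcre and 6.52 ± 1.63 in P7 whole. Corrected, it stood at 0.588, 0.775, 2.57 and 0.580, with 11, 14, 45.8 and 16 implied fragments, so the high adult whole value rested on a short transcript of few fragments. A 200-nt locus beside it (chr7:61354040-61354239) was at 182 in Lhbcre and 16.5 in adult Tshbcre, or 5.51 and 2.69. Toward Ndn, a 473-nt locus (chr7:61742333-61742805) was at 5.77, 72.1, 1.74 and 1.94 in adult Tshbcre, Lhbcre, adult whole and P7 whole, or 1.18, 2.69, 0.633 and 1.27. The highest levels of the window were in single libraries, at 204 in Lhbcre (chr7:60312946-60313049) and at 199.8 in P7 Tshbcre (chr7:61644571-61644680), or 4.96 and 5.70 corrected. P7 Tshbcre alone also had loci at 164 over Snhg14 and Snrpn (chr7:59650841-59650956) and at 150 near Mir344g (chr7:61639074-61639185), or 5.61 and 4.55. Adult Tshbcre alone had loci at 68.1 near A230057D06Rik (chr7:61351275-61351381) and at 52.9 inside Snhg14 (chr7:59583510-59583625), or 1.77 and 1.81. On the corrected scale none of these single-library loci exceeded 5.70. The 3 P7 Tshbcre loci were still 4-fold above P7 whole, which did not list them, with differences of 2.74, 2.72 and 2.47 in log2(level + 1). Likewise the 104-nt and 200-nt loci of Lhbcre stayed above adult whole, by 2.58 and 2.70.

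Farther toward Ndn the levels were lower. The second longest locus of the window (chr7:61743776-61853442), with no annotated gene within 6203 nt, had levels of 1.69, 0.747, 0.167, 2.03 and 0.382, or 0.188, 0.056, 0.060, 0.163 and 0.10 corrected, so that adult Tshbcre was the highest on the second scale. The next locus (chr7:61853832-61856229) stood at 4.18, 10.1, 1.34, 21.0 and 1.68, or 1.19, 0.457, 0.672, 1.34 and 1.06 corrected. Its neighbour (chr7:61856285-61859234) was not listed in Lhbcre and stood at 1.05, 0.355, 1.55 and 2.74 in adult Tshbcre, adult whole gland, P7 Tshbcre and P7 whole gland, or 0.548, 0.163, 0.560 and 0.384 corrected.

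At Ndn an unnamed transcript had exactly the bounds of the annotated gene (chr7:61998025-61999676, 1652 nt) in all 5 libraries that list the chromosome, and its FPKM was the same as that of the named gene in each. The levels were 12.3 ± 0.532 in adult Tshbcre, 11.0 ± 0.399 in Lhbcre, 8.95 ± 0.448 in adult whole, 14.8 ± 0.603 in P7 Tshbcre and 13.9 ± 0.498 in P7 whole. Named and unnamed together they came to 24.7, 22.1, 17.9, 29.6 and 27.8. The P7 Tshbcre and P7 whole levels differed by less than the sum of their counting SDs, and adult whole was the lowest. Magel2, a neighbouring MAGE-family gene, was matched by an unnamed transcript of 4662 nt at 0.039 in adult Tshbcre, 0.023 in adult whole, 0.105 in P7 Tshbcre and 0.301 in P7 whole, and by none in Lhbcre. The unnamed entries at these 2 genes have the bounds of annotated genes. Their values equal those of the named gene at Ndn, and in 3 of 4 libraries at Magel2, which was 0 by name in adult whole. In the long locus with Mir344f, 1 unnamed transcript of P7 whole also had the bounds of a named gene, Gm18472, listed at 0.

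Over Snhg14, the long host transcript, a locus at Snord64 (chr7:59627813-59629585), a small nucleolar RNA gene, was listed in all 5 libraries. Its levels were 3.24, 26.2, 1.99, 28.0 and 1.41, and its corrected levels 2.34 ± 0.179, 0.639 ± 0.067, 1.23 ± 0.128, 3.35 ± 0.209 and 1.40 ± 0.105 in adult Tshbcre, Lhbcre, adult whole gland, P7 Tshbcre and P7 whole gland. The 2 Tshbcre libraries were the highest after the correction over the whole locus. Over the assembled length alone Lhbcre was the highest, at 11.2 beside 5.64 in P7 Tshbcre, from 1 piece of 101 nt that equalled 5.7% of the locus. Named Snhg14 was listed at 0 in adult Tshbcre, Lhbcre, adult whole and P7 whole and at 0.93 in P7 Tshbcre. A 313-nt locus beside it (chr7:59629705-59630017) was listed in adult whole at 3.51 and in P7 whole at 21.2, or 1.22 and 1.01 corrected. A 227-nt locus farther along (chr7:59638967-59639193) was at 18.1, 16.9 and 16.4 in adult Tshbcre, adult whole and P7 Tshbcre, or 0.946, 0.992 and 1.07, and a 137-nt one (chr7:59651346-59651482) in P7 whole alone at 16.4, or 0.962. Corrected levels at these 3 loci lay between 0.946 and 1.22. At 2 other small Snhg14 loci, named after their values were seen, P7 Tshbcre stood higher. It was at 6.27 corrected, beside 1.28 in P7 whole and 1.44 in adult Tshbcre, at chr7:59623555-59623906, and at 5.31, beside 0.844 in P7 whole, at chr7:59631331-59631502. Of small annotated genes other than miRNAs, none of the 206 on chromosome 7 and none of the 21 on chromosome 12 lay in a merged locus shorter than 400 nt, although 79 and 60 loci were that short.

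Few loci were seen in all libraries. On chromosome 12, 62 of the 74 loci had a transcript in 1 library, of which 30 in Ghcre, 12 in Lhbcre, 8 in adult Tshbcre, 7 in P7 Tshbcre, 4 in P7 whole and 1 in adult whole, and 4 had one in all 6. These shares were 83.8% and 5.41%, beside 70.6% and 3.28% of the 216390 merged loci on chromosomes that all 6 tables cover. The 74 include the loci in the stretch without any Ghcre line, none of which could be listed in all 6. The window and genome shares are therefore not fully alike. On chromosome 7, 57 of 107 loci were in 1 library, of which 31 in P7 Tshbcre, 9 in adult Tshbcre, 7 in Lhbcre, 6 in P7 whole and 4 in adult whole, and 9 were in all 5. The shares were 53.3% and 8.41%, beside 58.0% and 6.01% of the 50578 loci on chromosomes not listed in Ghcre. The loci in 1 library were short, with medians of 137 and 149 nt, against 29833 nt for the 4 loci found in all 6 libraries and 2398 nt for the 9 found in all 5. Loci of 1000 nt or more numbered 9 and 13.

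For a count over all loci, a library without a transcript at a locus entered at a level of 0, and a locus was counted where log2(level + 1) differed by 2 or more, a 4-fold difference, and the higher library had a level of 1 or more. In P7 Tshbcre against P7 whole, 65 of 103 loci were higher and 11 lower, beside 42.8% and 21.6% of all 104387 merged unnamed loci of the genome. Over the 38 loci with a transcript in both libraries, 16 were higher and 0 lower, beside 34.1% and 0.18% of all such loci. After the length correction the counts were 40 of 103 higher and 1 lower, beside 14.3% and 0.14%. Of the 38 in both, 5 were then higher, all on chromosome 7, beside 1.31%, and 0 lower, beside 0.045%. The 5 lie between the 2 Mir344 loci. They include the 641-nt, 490-nt and 452-nt loci above and 2 others named after their values were seen. At chr7:61651720-61652321 the corrected levels were 5.69 ± 0.436 in P7 Tshbcre and 0.486 ± 0.102 in P7 whole. At chr7:61658777-61660118 they were 5.70 ± 0.291 and 0.485 ± 0.068. The median corrected difference over the 32 chromosome 7 loci in both libraries was 1.16, with 30 of 32 above 0, beside 0.40 and 82.5% over all such loci of the genome.

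In adult Tshbcre against adult whole, 36 of 77 loci were higher and 7 lower, beside 37.2% and 12.8% of all loci, and of the 29 loci in both libraries 0 and 1, beside 7.11% and 2.24%. Corrected, 6 were higher and 1 lower, beside 2.26% and 0.391%. The 6 were all inside Rian or Rtl1 and not listed in adult whole, where named Rtl1 stood at 22.5 scaled FPKM. The lower one was the 122-nt locus inside Rtl1. Of the 29 in both, 0 were counted in either direction, beside 0.0901% and 0.0551%. The 21 chromosome 7 loci in both had a median corrected difference of 0.28, with 16 above 0, beside 0.14 and 67.2% over all loci, and the 8 on chromosome 12 had a median of −0.06. In adult Ghcre against adult whole, 29 of the 34 chromosome 12 loci that could be compared were higher and 0 lower, beside 71.9% and 5.72%, and 30 of the 34 were listed in Ghcre alone. Of the 4 in both libraries 0 were higher or lower by that much, beside 15% and 1.16%, and 0 after the correction, beside 0.154% and 0.0564%. Corrected, 2 of the 34 were higher, beside 3.85%, and 0 lower, beside 0.163%, the 2 being both beyond Mirg and in Ghcre alone, each at 3.56 (chr12:109852713-109852815 and, named after its values were seen, chr12:109790117-109790311). The 4 loci had a median corrected difference of 0.76, all above 0, beside 0.14 over all loci.

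In Lhbcre against adult whole, 31 of 59 loci were higher and 14 lower, beside 23.3% and 29.9%. Of the 17 loci in both libraries 9 were higher and 0 lower, beside 31.5% and 0.102%, with a median difference of 2.04. After the correction 0 of the 17 were counted, beside 0.85% and 0.126%, and the median was −0.01. Over all 59, the corrected counts were 21 higher and 2 lower, beside 10.6% and 0.811%, the lower ones being the 228-nt locus inside Rian and the 122-nt locus inside Rtl1, which Lhbcre did not list. The short length of the Lhbcre pieces moved with these counts. In P7 whole against adult whole, 16 of 66 loci were higher and 13 lower, beside 22% and 19.7%, and of the 24 in both libraries 1 and 2, beside 2.28% and 3.86%. Corrected, the counts over all 66 were 1 and 4, beside 0.137% and 0.602%. The higher one was a 118-nt locus inside Rian in P7 whole alone (chr12:109601001-109601118), and 3 of the 4 lower ones were listed in adult whole and not in P7 whole, at 3.49 inside Rtl1 and at 52.6 and 16.3 inside Rian, the last (chr12:109593917-109597382) named after its values were seen. Of the 24 in both, 1, Meg3, was then 4-fold lower, beside 0.0995%, and 0 higher, beside 0.0257%. In P7 Tshbcre against adult Tshbcre, 56 of 116 loci were higher and 27 lower, beside 28.5% and 35.3%, and corrected 36 and 7, beside 10.3% and 2.08%. Of the 41 loci in both libraries 10 were higher and 0 lower, beside 23.7% and 0.943%. After the correction 3 of the 41 were higher, beside 0.289%, and 0 lower, beside 0.0477%. The 3 were the 490-nt and 452-nt loci and the one at chr7:61651720-61652321, which stood at 0.422 ± 0.117 in adult Tshbcre. The 3 adult sorted libraries and the P7 whole library were all compared with the same adult whole library, so these counts are not independent of each other.

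**Figure D5:**
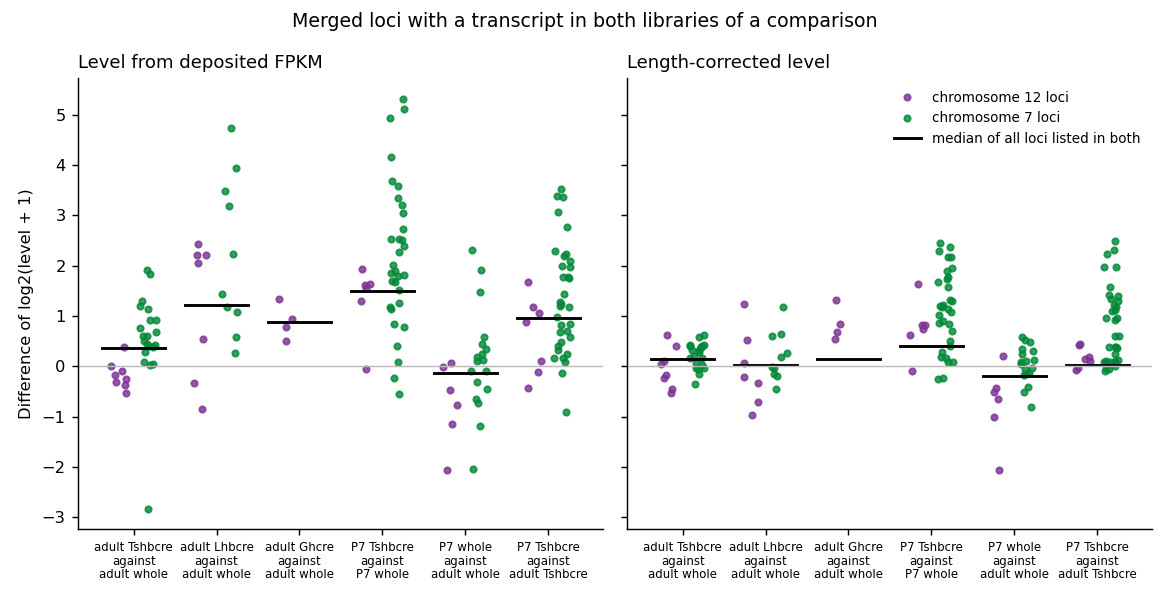
Difference of log2(level + 1) between the 2 libraries of each comparison for loci with a transcript in both (1 point per locus, chromosome 12 purple, chromosome 7 green), from FPKM in the left panel and after the length correction in the right panel; black bars are medians over all such loci of the genome. In the right panel most chromosome 7 loci of P7 Tshbcre against P7 whole lie above the bar at 0.40, and the single low point of P7 whole against adult whole is the Meg3 locus at −2.05.

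Annotated genes of the 2 domains gave a check on the same samples. Of the 7 chromosome 12 genes listed (Begain, Dlk1, Meg3, Rtl1, Rian, Mirg, Dio3), 4 reached 1 scaled FPKM in P7 Tshbcre or P7 whole, and of these 0 were 4-fold higher and 1, Mirg, lower, beside 3.26% and 6.11% of all named genes. Of the 12 chromosome 7 genes (Ube3a, Snhg14, Snrpn, Snurf, Ipw, Ndn, Magel2, Mkrn3, Peg12, Atp10a, Gabra5, Gabrg3), 4 did, with 0 higher and 1, Snrpn, lower. Mirg was listed by name at 0 in P7 Tshbcre and 11.9 in P7 whole. The unnamed locus over Mirg went the other way, at 6.01 against 3.17 corrected. Reads of Mirg could enter either, so the named value alone is not the level of Mirg. Snrpn, which encodes a splicing-related protein, was listed at 16.0 scaled FPKM in P7 whole and at 0 in the other 4 libraries, while Snurf, which shares its transcript, was listed at 29.6, 19.1, 25.7 and 24.5 in those 4 and not listed in P7 whole. Both names cover the same bases, and their reads cannot be told apart in these tables. Ube3a, the ubiquitin ligase gene of the Angelman syndrome, stood at 8.54, 11.2, 7.94, 11.8 and 10.8 in adult Tshbcre, Lhbcre, adult whole gland, P7 Tshbcre and P7 whole gland. None of these 12 genes was 4-fold higher in P7 Tshbcre than in P7 whole. A230057D06Rik, which lies in the stretch between Mir344d-1 and Ndn and is not among the 12, was 4-fold higher, at 13.5 against 1.27 scaled FPKM.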

How the data were processed

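The 6 deposited tables list transcripts assembled with Cufflinks on reads aligned with Bowtie2 to mm39, per the submitters' processing notes, which give no version. FPKM values and their lower and upper bounds are as the authors deposited them. The coverage column of the deposited tables, a signal value, and the transcript length in nt, per the file headers, were used for relative depth and for levels. The multi-mapping and bias settings behind these values, the strand and the exons of unnamed transcripts are not given in the sources used here, and no genome of build mm39 was used, so no sequence of a member was read.

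From these files, lines with an assembler identifier and 100 nt or more inside the 2 windows were taken, and loci sharing 1 base or more were merged over libraries. The level of a locus was the sum of FPKM times length, divided by the locus length and by a library factor, the median of ratios over 5808 named genes at 1 FPKM or more in every library (1.00, 0.758, 0.967, 1.10, 0.976 and 1.42 for adult Tshbcre, adult Ghcre, adult Lhbcre, adult whole gland, P7 Tshbcre and P7 whole gland). Differences are of log2(level + 1), a pseudocount that understates differences of low levels, and 2 or more with the higher level at 1 or more counted as apart. No statistical test was run, since each group had 1 library. The counting SD was taken as the distance from FPKM to its deposited lower bound, divided by 2. It covers counting error at most, and PCR copies are not independent molecules. At the Meg3 locus it did not follow the amount of RNA and is not a counting error. The length correction used single transcripts with 10 to 200 implied fragments in 3 libraries. The script that counts loci apart was tested on simulated data.

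Loci named are, in each window, the 5 with the highest level, the 5 longest, up to 5 present in every library, and the 2 with the largest difference in each direction of each comparison. The members and gene lists were chosen with earlier results of these data known. One gene of the planned chromosome 7 list is not reported here. A library without a transcript at a locus was given a level of 0, except in the Ghcre gap on chromosome 12, a stretch of 122 kb with no line of any kind, which was treated as not measured although the plan had given it a level of 0. RefSeq miRNA coordinates were not used for placement: hairpins were placed by the named lines of the deposited tables. Alternatives tried were a minimum length of 200 nt, 2 other scalings, a pseudocount of 0.1, merging across gaps of up to 100 nt and the deposited lower bounds. The length correction, the mean over assembled length and counts over loci with a transcript in both libraries were added after the data were seen. Python 3.11.15, pandas 2.3.3 and numpy 2.4.6 were used.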

Additional observations from a re-analysis of the deposited data

Results flagged for a closer look

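The 359-nt locus at chr7:61353578-61353936, beside A230057D06Rik, moved in opposite directions in the adult and at P7. Its difference in log2(level + 1) was −2.83 between adult Tshbcre and adult whole and 2.27 between P7 Tshbcre and P7 whole. The difference between the 2 was not tested, and after the length correction the values were −0.16 and 1.18.

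Unnamed transcripts shorter than 100 nt, which the rule leaves out, were found in both windows. Over the whole genome they were 17.7% of the unnamed transcripts in adult Tshbcre, 56.2% in Ghcre, 84.2% in Lhbcre, 9.35% in adult whole, 62.2% in P7 Tshbcre and 16.5% in P7 whole, so the differences between libraries in the windows are also seen genome-wide. In the chromosome 12 window there were 11 in adult Tshbcre, 81 in Ghcre and 195 in Lhbcre, beside 10 in adult whole, and 49 in P7 Tshbcre, beside 19 in P7 whole. The 11 and 10 of the first pair were nearly equal. In the chromosome 7 window there were 50 in adult Tshbcre and 309 in Lhbcre, beside 12 in adult whole, and 256 in P7 Tshbcre, beside 23 in P7 whole. Between Mir344d-1 and Ndn these short transcripts held 28.4% of the implied fragments in Lhbcre, 12.3% in P7 Tshbcre, 2.41% in adult Tshbcre, 1.36% in adult whole and 2.5% in P7 whole. Between Rian and Mirg they held 14.4% in Lhbcre and 3.60% or less in the other 5 libraries.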

How the results depend on the processing

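With a minimum length of 200 nt the merged loci numbered 22 on chromosome 12 and 64 on chromosome 7. Loci apart, in the order adult Tshbcre, Ghcre and Lhbcre against adult whole, P7 Tshbcre against P7 whole, P7 whole against adult whole and P7 Tshbcre against adult Tshbcre, were 43, 29, 45, 76, 29 and 83. At 200 nt they were 25, 2, 13, 24, 13 and 32. With the length-corrected level they were 7, 2, 23, 41, 5 and 43, among loci with a transcript in both libraries 1, 0, 9, 16, 3 and 10, and with both together 0, 0, 0, 5, 1 and 3. The other 40 planned values for these counts stayed within 1.5 times. The difference between Lhbcre and adult whole changed sign at the Rtl1 locus, from 2.44 to −0.66 at 200 nt and −0.71 length-corrected. With the length correction it also did so at the locus after Rian (chr12:109628204-109653923, from 2.21 to −0.22), at Snord64 (3.19 to −0.45) and at chr7:61853832-61856229 (2.24 to −0.20). At chr7:59629705-59630017, P7 whole against adult whole went from 2.30 to −0.14. Of 26 differences of single loci apart, 6 stayed 4-fold after the length correction. All 26 stayed so with a pseudocount of 0.1, which was fixed in advance because a smaller pseudocount can only widen a difference. With Ghcre set to an equal sum or left unscaled, the median difference over all loci listed in both libraries moved from 0.87 to 1.95 and 0.50. No paired analysis was possible because each group had 1 library. Depth limits most short loci, whose levels rest on few fragments. Absence of a locus from a library can reflect its depth or its assembly as well as its RNA.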
